A study of Homo sapiens with 8 samples.

Results

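Insulin, IGF and PI3K-FOXO signaling was followed at the mRNA level through 9 genes of C4-2 cells. The genes are the receptors INSR and IGF1R, the adaptors IRS1 and IRS2, the phosphoinositide 3-kinase (PI3K) subunits PIK3CA, PIK3R1 and PIK3R3, and the forkhead transcription factors FOXO1 and FOXO3. They were chosen by symbol as members of this pathway, with earlier results of these data known. All 9 were found among the 57773 gene features of the deposited table. C4-2 is an androgen-independent line that descends from LNCaP, a human prostate cancer line. Both drugs are biguanides, and phenformin carries a phenylethyl group where metformin carries methyl groups. Metformin is an oral diabetes drug. All cells grew in T medium, which holds serum and 5 µg/ml added insulin, so no group was free of insulin. RNA was taken after 24 h of exposure. For phenformin the time and dose come from the sample labels alone, since the protocol text names only PBS and metformin. PBS vehicle gave 3 libraries, metformin at 5 mM gave 3 and phenformin at 1 mM gave 2. Cells of 1 line were used, and the sources do not say whether replicates came from separate cultures. The p-values therefore rest on a spread between libraries that could be technical.

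Insulin and the insulin-like growth factors bind receptor tyrosine kinases on the cell surface, and the bound receptor phosphorylates IRS adaptor proteins. Phosphorylated adaptors recruit PI3K, which makes a membrane lipid that brings the kinase AKT to the membrane. AKT phosphorylates FOXO factors and keeps them out of the nucleus, and in many cell types nuclear FOXO factors raise transcription of INSR and IRS2, so that low pathway activity can restore the upper part of the pathway. The libraries measure mRNA only, and phosphorylation and protein levels were not measured here.

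RefSeq promoters of GRCh38.p14 were matched to 9 of 9 members, with 250 bases before and 50 bases after each annotated start and 20 windows in all. Those of the adaptors IRS1 and IRS2, which rose, and of PIK3CA are printed as examples. Each holds a motif that was searched for, shown in capitals, as does 1 window of FOXO3 that is not printed. In the IRS1 window (chr2:226799771-226800070, minus strand) the capitals mark an E-box. In the IRS2 window (chr13:109786534-109786833, minus strand) they mark an insulin response element. In the PIK3CA window (chr3:179148107-179148406, plus strand) they mark a forkhead motif on the reverse strand.
IRS1: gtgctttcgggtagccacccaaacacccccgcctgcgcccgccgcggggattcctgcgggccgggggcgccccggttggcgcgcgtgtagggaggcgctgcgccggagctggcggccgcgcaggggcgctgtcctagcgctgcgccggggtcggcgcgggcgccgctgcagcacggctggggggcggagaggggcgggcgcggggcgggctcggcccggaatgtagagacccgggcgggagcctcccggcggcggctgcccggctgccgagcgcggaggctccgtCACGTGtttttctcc
IRS2: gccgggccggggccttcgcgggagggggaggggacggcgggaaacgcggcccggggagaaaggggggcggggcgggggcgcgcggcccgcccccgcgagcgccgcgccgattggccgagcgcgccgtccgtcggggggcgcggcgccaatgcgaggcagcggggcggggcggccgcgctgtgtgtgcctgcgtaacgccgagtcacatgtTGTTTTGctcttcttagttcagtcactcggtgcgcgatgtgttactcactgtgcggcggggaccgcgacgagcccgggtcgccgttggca
PIK3CA: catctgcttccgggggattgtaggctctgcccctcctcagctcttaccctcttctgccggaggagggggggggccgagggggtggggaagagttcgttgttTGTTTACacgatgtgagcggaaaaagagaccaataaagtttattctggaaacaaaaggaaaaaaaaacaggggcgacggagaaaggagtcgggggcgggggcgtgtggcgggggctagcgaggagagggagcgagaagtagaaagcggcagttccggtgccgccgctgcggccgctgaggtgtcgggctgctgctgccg
The E-box of IRS1 (CACGTG) begins 35 bases after the start, and 7.26% of the 35116 promoters in the table hold these letters. The insulin response element of IRS2 (TGTTTTG, or CAAAACA on the other strand) begins 40 bases before the start, and 4.92% of promoters hold it. This motif was added to the search after the promoters had been seen. The forkhead motif of PIK3CA (GTAAACA, or TGTTTAC on the other strand) begins 149 bases before the start, and 3.42% of promoters hold it. FOXO3 holds an AP-1 motif (TGAGTCA, or TGACTCA) in 1 of its windows, against 4.95% of promoters. The cAMP response element (TGACGTCA, the same on both strands) was searched as well and is in 1.85% of promoters and in 0 member windows. The motifs do not overlap each other in these windows. A match describes the letters in the window and does not show a site in use.

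Expression is given in RPKM, the reads of a gene scaled to its exon length in kilobases and to the mapped reads of the library. The values are relative within a library. The PBS libraries held 13837455 to 44774670 mapped reads, the metformin libraries 14169196 to 15898491 and the phenformin libraries 14611068 to 15876543. PBS replicate 1 was the deepest library, at 2.93 times the median of the other 7. Over genes of 20 to 200 reads, its robust variance against PBS replicates 2 and 3 was below sampling noise, at 0.795 and 0.824. Independent libraries give at least 1, and the other pairs of a group gave 1.38 to 1.58. The plain variance was above 1, at 1.271 and 1.401, against 1.766 to 1.853 in the other pairs. By the robust value, PBS replicate 1 may share reads with the other PBS libraries. Without it, all 9 members kept their call against PBS with either drug and no log2 change moved by more than 0.03. The reads of PBS replicates 2 and 3 were also subtracted from it gene by gene, and their mapped totals from its own, which left 15680766. In 1624 features PBS replicate 1 held fewer reads than replicates 2 and 3 together, and these were set to 0, so the reduction is approximate. With it reduced in this way, all 9 again kept their call, and the largest shift was 0.06. The members held 89 to 8872 reads per library, the fewest in FOXO1 and the most in PIK3R1. The share of mitochondrially encoded genes in the summed RPKM was 23.3% to 24.8% in PBS libraries, 12.7% to 13.6% in metformin libraries and 4.6% to 4.76% in phenformin libraries. The part of this shift in the RPKM of other genes was not tested, and other scalings are given where they change a result. All 9 prostate luminal markers were at 1 RPKM or more in every library. Their sum was 1313 to 1471 RPKM in PBS libraries, 488 to 539 in metformin libraries and 636 to 662 in phenformin libraries. All 12 basal, neuroendocrine, immune and endothelial markers found in the table were below 1 RPKM in every library. The 4 stromal markers summed to 4.96 to 5.47 RPKM in PBS libraries, 9.21 to 10.9 in metformin libraries and 7.57 to 7.76 in phenformin libraries. VIM averaged 3.97 RPKM with PBS, 8.82 with metformin and 4.99 with phenformin, and COL1A1 averaged 1.25, 1.24 and 2.67. COL1A2 averaged 0.0378 RPKM or less in each group, and DES was listed at 0 in every library. The rise of the sum was thus in VIM with metformin, and in COL1A1 and VIM with phenformin. The part of either change in the results was not tested, and in bulk RNA fewer cells of a kind and less RNA per cell cannot be told apart.

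With both drugs the adaptors and FOXO factors were higher than with PBS, and the receptors and PIK3R3 were lower, except that INSR with metformin was at 0.01 on the log2 scale after quantile normalization. Metformin was compared with PBS by limma on log2(RPKM + 0.1) over 11730 genes, and a gene was called at a Benjamini-Hochberg adjusted p under 0.05. Of the 9 members, 8 were called, against 82.9% of all genes tested. The called members were 4 higher and 4 lower, where 28.2% of all genes were called higher and 54.8% lower. At least 2-fold changes were called for 6 members and for 30.9% of all genes. The RPKM ranges of the groups did not overlap for 9 of 9 members, nor for 84.5% of all genes. The share of members called was thus close to that of all genes. The median log2 change of all genes was -0.30, and relative to it the members changed by a median of 1.30 in either direction, against 0.59 for all genes. Both medians are a description, since the members were not chosen independently of these data. Centring each library on its median gave 4229 higher and 5420 lower calls over all genes, where the fit without scaling gave 3302 and 6427. The members stood at 4 higher and 4 lower in both. The TPM scale gave 4588 higher and 5016 lower calls over all genes and 4 and 3 over the members, and quantile normalization gave 4396 and 5072 over all genes and 5 and 3 over the members.

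For phenformin, the fit took all 8 libraries and 12172 genes. Again 8 of the 9 members were called, against 76.5% of all genes. There were 4 higher and 4 lower members, where 31.2% of all genes were called higher and 45.4% lower. This balance depends on the scaling, since the fit without scaling gave 3792 higher and 5521 lower calls over all genes and the TPM scale gave 5297 and 4008, with 5 members higher and 4 lower on that scale. At least 2-fold changes were called for 3 members and 24.3% of all genes. The groups did not overlap for 8 members and for 85.9% of all genes. Here the median log2 change of all genes was -0.15, and relative to it the members changed by a median of 0.92 in either direction, against 0.55 for all genes. Both comparisons share the PBS libraries, so their members are given side by side and the likeness of their directions is no separate result.

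**Figure D1:**
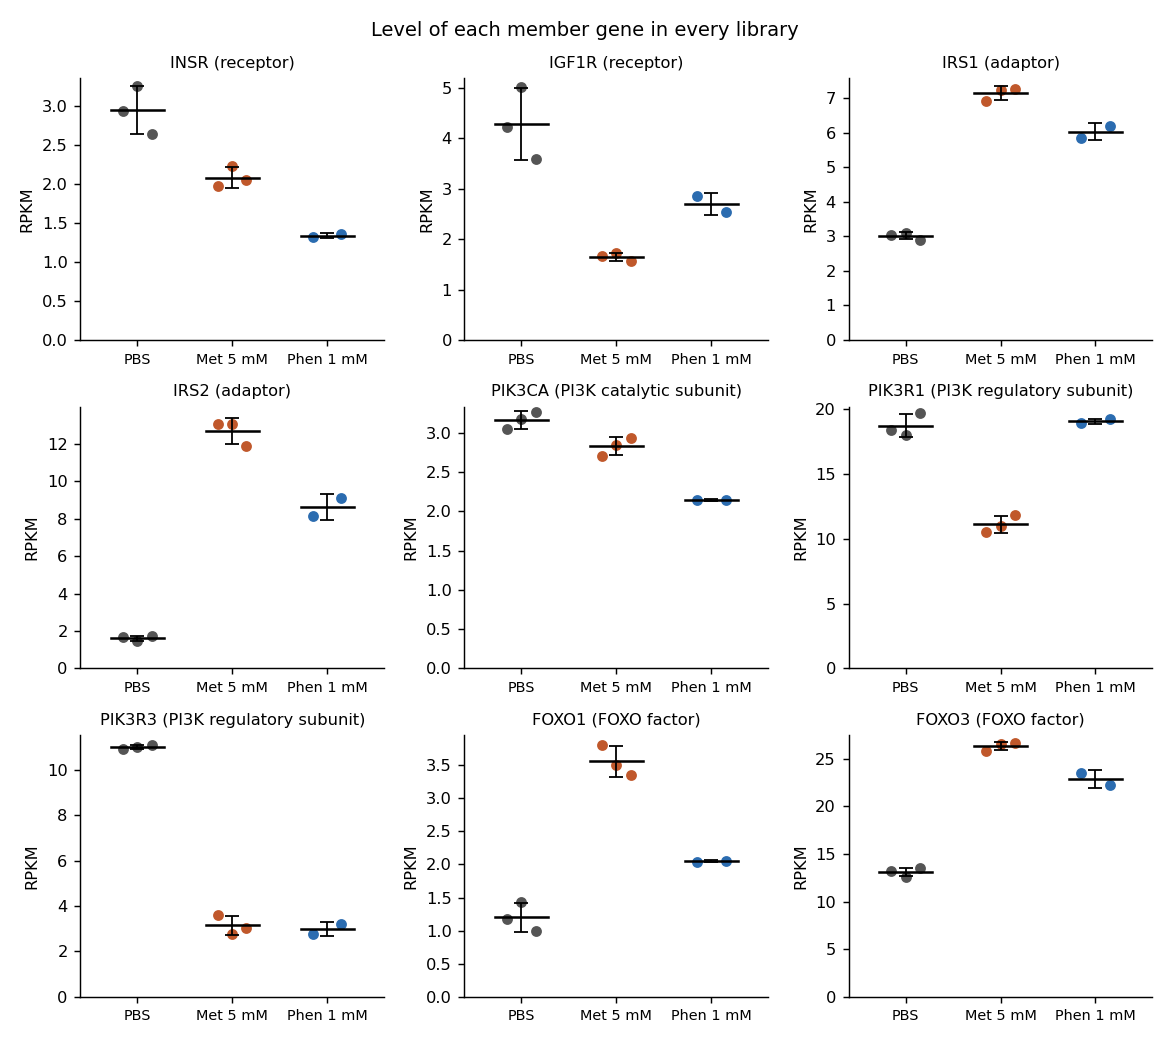
RPKM of each member (y axis, linear, from 0) in every library with PBS, 5 mM metformin and 1 mM phenformin (x axis). Points are libraries, the long line is the mean and the bars are 1 SD (n = 3, 3 and 2). IRS2 rises from below 2 RPKM with PBS to above 8 RPKM in every treated library, and PIK3R3 falls from about 11 RPKM to below 4.

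The receptors were lower with both drugs in the fit without scaling, and the drugs ranked differently on them. INSR, the receptor of insulin, was at 2.94, 3.26 and 2.65 RPKM in PBS replicates 1, 2 and 3, at 1.97, 2.23 and 2.05 with metformin and at 1.32 and 1.36 with phenformin. The 3 groups did not overlap, with PBS highest and phenformin lowest. INSR fell by 0.48 on the log2 scale with metformin (SE 0.0971, limma, adjusted p = 0.00194), close to the median of all genes, and its change relative to that median was -0.17. The call for metformin was lost on the TPM scale, where the change was -0.23 (limma, adjusted p = 0.0683), and quantile normalization turned the change to 0.01 (adjusted p = 0.949). With phenformin INSR fell by 1.08 (SE 0.105, limma, adjusted p = 2.0e-05). IGF1R, the receptor of the insulin-like growth factors, was at 4.23, 5.02 and 3.59 RPKM with PBS, at 1.67, 1.72 and 1.56 with metformin and at 2.85 and 2.54 with phenformin. Every PBS library was above every treated library, and both phenformin libraries were above all metformin libraries. IGF1R fell by 1.31 with metformin (SE 0.121, limma, adjusted p = 1.9e-05) and by 0.64 with phenformin (SE 0.132, adjusted p = 0.002). The receptors thus ranked in opposite order in the treated groups. INSR was 0.694 ± 0.0444 times the level of IGF1R with PBS, 1.26 ± 0.0725 times with metformin and 0.499 ± 0.05 times with phenformin (SD, n = 3, 3 and 2). The ratio was above 1 in all metformin libraries and below 1 in all others.

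Both adaptors rose with both drugs, and IRS2 rose the most of the members. IRS1, the adaptor that couples the receptors to PI3K in many tissues, was at 3.04, 3.10 and 2.90 RPKM with PBS, at 6.92, 7.25 and 7.28 with metformin and at 5.85 and 6.20 with phenformin. IRS1 was 2.37-fold higher with metformin, a log2 change of 1.22 (SE 0.0582, limma, adjusted p = 5.6e-07). With phenformin it rose by 0.98 (SE 0.061, limma, adjusted p = 1.3e-06). Each treated library held more IRS1 than any PBS library. IRS2, a second adaptor of the same kind and a FOXO target in liver, was at 1.67, 1.45 and 1.72 RPKM with PBS, at 13.1, 13.1 and 11.9 with metformin and at 8.16 and 9.13 with phenformin. An opposite-strand gene that overlaps IRS2, AL162497.1, was at 0.795 RPKM or less. The 3 groups were far apart for IRS2, with metformin highest. IRS2 was 7.89-fold higher with metformin, a log2 change of 2.91 (SE 0.0816, limma, adjusted p = 5.5e-08), which lay above that of 99.3% of all genes tested. With phenformin it was 5.36-fold higher, a log2 change of 2.35 (SE 0.0905, limma, adjusted p = 1.0e-07). IRS2 stood at 0.537 ± 0.0651 times the level of IRS1 with PBS, 1.78 ± 0.131 times with metformin and 1.43 ± 0.0542 times with phenformin (SD, n = 3, 3 and 2). IRS1 was thus the more abundant adaptor mRNA in every PBS library and IRS2 in every treated library. The window printed for IRS2 holds the insulin response element and that of IRS1 does not. That motif was added to the search after the windows had been seen, so this difference is only a description.

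Among all genes tested, 3 were closest to IRS2 in their profile over the 8 libraries, by the root mean square difference of log2 values centred on PBS. OSER1, named for its response to oxidative stress, differed by 0.114 and averaged 15.9 RPKM with PBS, 122 with metformin and 71.6 with phenformin. The zinc finger gene ZNF844 differed by 0.128, at 0.49, 4.07 and 2.98 RPKM. ZNF844 averaged below 1 RPKM with PBS and was tested only through its level in treated libraries, which favours a rise. RRAGC, a Rag GTPase that helps amino acids activate mTORC1, differed by 0.147, at 8.59, 65.7 and 37.1 RPKM. Likeness of profile is a description over 8 libraries that share 3 treatments. Among the members, the closest profiles were IRS1 and FOXO3, which differed by 0.174.

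The 3 PI3K subunits behaved differently from each other. PIK3CA, the catalytic subunit p110α, was at 3.05, 3.17 and 3.27 RPKM with PBS, at 2.71, 2.84 and 2.94 with metformin and at 2.14 and 2.15 with phenformin. Its groups did not overlap. The log2 change with metformin was -0.15, with a 95% interval of -0.32 to 0.01 (limma, adjusted p = 0.067), and it was 0.03 after median-centring, 0.11 on the TPM scale and 0.25 after quantile normalization, where it passed (adjusted p = 0.0109). No direction is therefore given for PIK3CA with metformin. With phenformin PIK3CA fell by 0.54 (SE 0.0728, limma, adjusted p = 1.5e-04). Its opposite-strand neighbour KCNMB3 was at 1.11 RPKM or less, and the sources used here do not say whether strand was used in counting. The forkhead motif printed above lies in the PIK3CA window.

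PIK3R1 encodes the regulatory subunit p85α, which stabilizes and restrains the catalytic subunits, and was the most abundant member with PBS. It was at 18.4, 18.0 and 19.7 RPKM with PBS, at 10.5, 11 and 11.8 with metformin and at 18.9 and 19.2 with phenformin. PBS and phenformin overlapped, while every metformin library was lower. PIK3R1 fell by 0.74 with metformin (SE 0.0602, limma, adjusted p = 8.9e-06). Its log2 change with phenformin was 0.03, with a 95% interval of -0.11 to 0.17 (limma, adjusted p = 0.665). The TPM scale gave 0.30 for phenformin (adjusted p = 0.00278) and quantile normalization -0.03. PIK3R3, the regulatory subunit p55γ, was at 10.9, 11 and 11.1 RPKM with PBS, at 3.61, 2.78 and 3.05 with metformin and at 2.77 and 3.21 with phenformin. Every treated library lay far below the PBS libraries, and the drug groups overlapped. PIK3R3 was 3.49-fold lower with metformin, a log2 change of -1.78 (SE 0.0915, limma, adjusted p = 7.9e-07). With phenformin it was 3.68-fold lower, a log2 change of -1.85 (SE 0.108, limma, adjusted p = 8.8e-07). A same-strand gene, AL358075.4, overlaps PIK3R3 in the annotation at hand and was not analysed here. The ratio of PIK3R1 to PIK3R3 was 1.70 ± 0.0737 with PBS, 3.58 ± 0.576 with metformin and 6.42 ± 0.602 with phenformin (SD, n = 3, 3 and 2). The ratio did not overlap between groups, through lower PIK3R3 in both drug groups and lower PIK3R1 in the metformin group. The summed level of PIK3R1 and PIK3R3 was 29.7 ± 0.94 RPKM with PBS, 14.3 ± 0.58 with metformin and 22.1 ± 0.531 with phenformin.

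Both FOXO members rose with both drugs, more with metformin than with phenformin. FOXO1, a factor that carries much of the response to low insulin in liver, was at 1.17, 1.44 and 1.00 RPKM with PBS, at 3.81, 3.51 and 3.35 with metformin and at 2.04 and 2.06 with phenformin. The 3 groups did not overlap. FOXO1 was 2.95-fold higher with metformin, a log2 change of 1.5 (SE 0.13, limma, adjusted p = 1.3e-05). With phenformin it was 1.70-fold higher, a log2 change of 0.73 (SE 0.137, limma, adjusted p = 0.00109). FOXO3, a factor linked to stress resistance and cell cycle exit, was at 13.2, 12.6 and 13.5 RPKM with PBS, at 25.8, 26.5 and 26.6 with metformin and at 23.5 and 22.2 with phenformin. FOXO3 was the most abundant member in every treated library. It was 2.01-fold higher with metformin, a log2 change of 1.00 (SE 0.0449, limma, adjusted p = 4.2e-07), and rose by 0.80 with phenformin (SE 0.0483, adjusted p = 1.1e-06). The related features FOXO1B and FOXO3B were listed at 0 in all 8 libraries. FOXO3 was 11.2 ± 2.36 times the level of FOXO1 with PBS, 7.42 ± 0.593 times with metformin and 11.1 ± 0.544 times with phenformin (SD, n = 3, 3 and 2). The ratio was lower in all metformin libraries than in any other library, while PBS and phenformin overlapped.

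**Figure D2:**
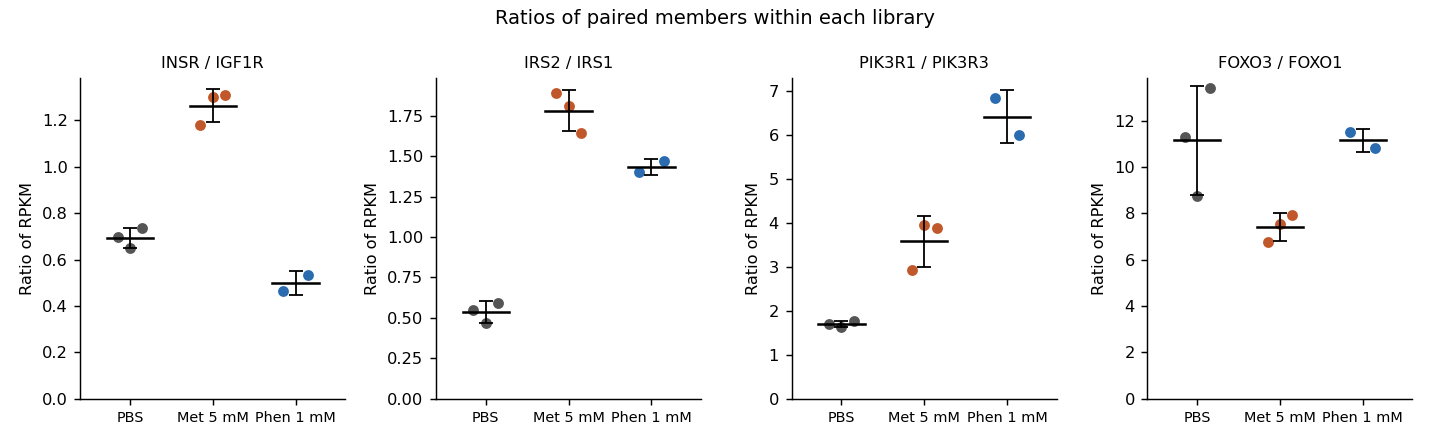
Ratio of RPKM within each library (y axis, linear, from 0) for 4 pairs of members with PBS, 5 mM metformin and 1 mM phenformin (x axis). Points are libraries, the long line is the mean and the bars are 1 SD (n = 3, 3 and 2). INSR exceeds IGF1R only in the metformin libraries, and IRS2 exceeds IRS1 in every treated library.

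The order of the members by RPKM, which is per length of exon, changed with treatment. With PBS the order was PIK3R1, FOXO3, PIK3R3, IGF1R, PIK3CA, IRS1, INSR, IRS2 and FOXO1, and PIK3CA overlapped IRS1 and IRS1 overlapped INSR. With metformin it was FOXO3, IRS2, PIK3R1, IRS1, FOXO1, PIK3R3, PIK3CA, INSR and IGF1R, and FOXO1 overlapped PIK3R3 and PIK3R3 overlapped PIK3CA. With phenformin it was FOXO3, PIK3R1, IRS2, IRS1, PIK3R3, IGF1R, PIK3CA, FOXO1 and INSR, and PIK3R3 overlapped IGF1R. The ranges of all other neighbours were apart. IRS2 thus moved from the eighth place with PBS to the second with metformin and the third with phenformin.

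The drugs were given at different doses, so compound and dose cannot be told apart, and the direct contrast compares the treatments as given. Over 12172 genes, 8 of the 9 members were called, against 65.1% of all genes. With phenformin 2 members were higher and 6 lower than with metformin, where 39.5% of all genes were higher and 25.6% lower. The excess of higher calls over all genes depends on the scaling, at 4810 higher and 3113 lower without scaling, 4043 and 3886 after median-centring and 3661 and 3920 after quantile normalization, while the members were 2 and 6 in each. No member changed at least 2-fold (0 of 9), against 9.14% of all genes. The groups were apart for 8 members and 76% of all genes. IGF1R was higher with phenformin by 0.67 on the log2 scale (95% interval 0.37 to 0.98, limma, adjusted p = 0.00204), and PIK3R1 by 0.78 (0.63 to 0.92, adjusted p = 1.5e-05). FOXO1 was lower with phenformin, at a log2 difference of -0.76 (95% interval -1.08 to -0.45, limma, adjusted p = 0.00127). INSR was lower as well, at -0.60 (-0.84 to -0.36, adjusted p = 0.00111), as was IRS2 at -0.55 (-0.76 to -0.35, adjusted p = 7.6e-04). These were larger than the spread between replicates, and the drugs therefore differed on both receptors but in opposite directions. PIK3CA differed by -0.38 (95% interval -0.55 to -0.22, limma, adjusted p = 0.00174). The differences of IRS1 and FOXO3 were smaller, at -0.24 (-0.38 to -0.10, limma, adjusted p = 0.00729) and -0.20 (-0.31 to -0.09, adjusted p = 0.00575). IRS1 lost its call without phenformin replicate 1 (-0.20, limma, adjusted p = 0.0644), and FOXO3 without phenformin replicate 2 (-0.16, adjusted p = 0.0623). For PIK3R3 the difference was -0.07, with a 95% interval of -0.31 to 0.18 (limma, adjusted p = 0.596). It changed sign without metformin replicate 1 (0.03) or phenformin replicate 1 (0.04). Tested against a 1.5-fold difference, no member passed between the drugs, with PIK3R1 the nearest (limma treat, adjusted p = 0.0645).

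**Figure D3:**
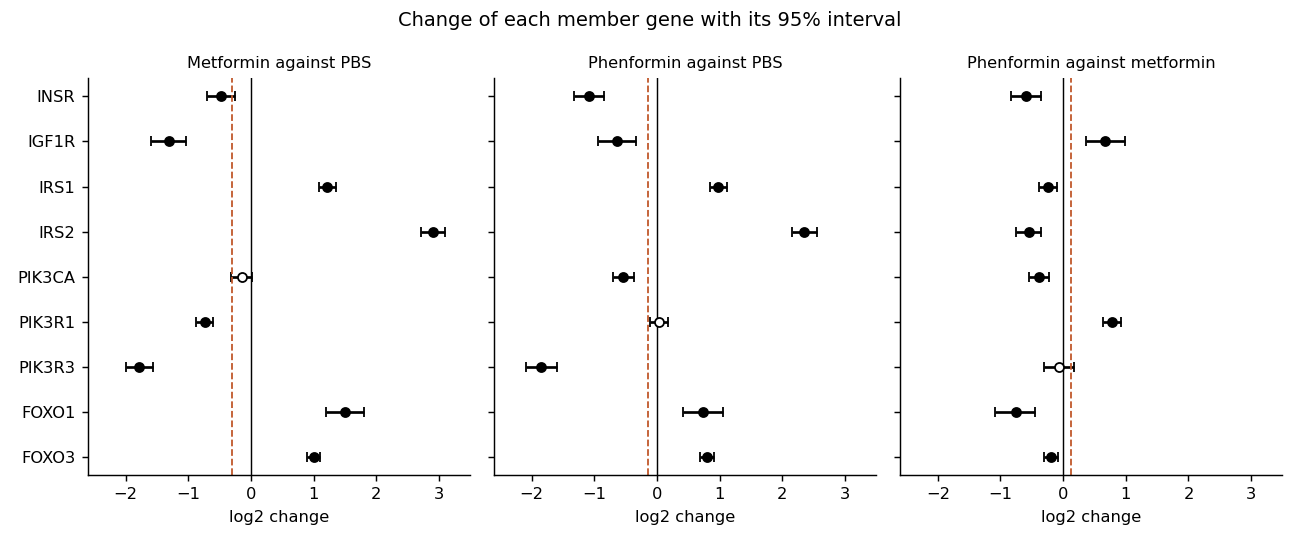
Log2 change of each member (x axis) in the 3 comparisons, with its 95% interval from limma. Filled points passed limma and open points did not, and the dashed line is the median of all genes tested. The adaptors and FOXO factors lie above 1.00 or near it with metformin, while PIK3R3 lies near -1.8 with both drugs and near 0 between them.

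Around the members, 94 further genes of the pathway were taken in 9 lists, and 69 of them passed the limit of 1 RPKM. Of the genes named below, GAB1, GAB2, IGFBP3 and SGK1 were below 1 RPKM in every PBS library and passed only through treated libraries. The limit thus allowed only a rise with metformin in these genes. Their p-values with either drug are descriptions, and they are included in the counts. With metformin 31 of the 69 were higher, 29 were lower and 9 were not called, at a median log2 change of -0.02 against -0.30 for all genes, of which 28.2% were called higher and 54.8% lower. With phenformin 26 were higher, 27 lower and 16 not called, at a median of -0.08 against -0.15 for all genes, of which 31.2% were called higher and 45.4% lower. After median-centring the counts were 35 higher and 24 lower with metformin and 28 and 24 with phenformin, and on the TPM scale they were 39 and 23, and 35 and 20. No list was tested for a direction, and the counts of single lists, some with only 1 or 2 tested genes, are descriptions to be read beside those shares of all genes. The genes named here were taken from each list by the size of their change, as paralogs of members or as AKT genes.

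Ligands were scarce in these cells. The insulin gene INS was listed at 0 in every library, IGF1 was at 0.217 to 0.657 RPKM and IGF2 at 0.0414 or less. IGF2R, the receptor that clears IGF2, was the only other gene of its list that was tested. It averaged 36.6 RPKM with PBS, 40.4 with metformin, a log2 change of 0.14 (limma, adjusted p = 0.0179), and 24.8 with phenformin, a change of -0.56 (adjusted p = 6.1e-06). IGF2R was thus higher than PBS with metformin and lower with phenformin, and the drugs differed by -0.70 (adjusted p = 5.8e-06). Of the IGF-binding proteins, which hold IGFs in the medium, 2 of 7 were tested. IGFBP3 averaged 0.893 RPKM with PBS and rose to 1.85 with metformin and 3.69 with phenformin, log2 changes of 0.98 and 1.93 (limma, adjusted p = 7.8e-05 and 1.6e-06). IGFBP3 reached the limit of 1 RPKM only in treated libraries. IGFBP2 fell by 0.79 with metformin (limma, adjusted p = 7.1e-05), from 14.9 to 8.51 RPKM, and was at 12.7 RPKM with phenformin (adjusted p = 0.0629).

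Of 7 other adaptors tested, 3 were higher and 3 lower with metformin, and 2 were higher and 3 lower with phenformin. GAB2, a docking protein that recruits PI3K, rose 5.86-fold with metformin, from 0.955 to 5.59 RPKM (limma, adjusted p = 1.8e-07), and was at 1.4 RPKM with phenformin (log2 change 0.51, adjusted p = 0.00119). GAB2 differed between the drugs by -1.92 on the log2 scale (limma, adjusted p = 2.4e-06), more than any member did. SH2B1, an adaptor that enhances receptor signaling, fell from 6.49 RPKM to 1.94 with metformin and 1.92 with phenformin (limma, adjusted p = 1.8e-07 and 1.2e-07). SHC1, which links receptors to the RAS pathway, rose by 0.76 and 0.45 (adjusted p = 6.2e-05 and 0.00189). GAB1 was at 0.634 RPKM with PBS, 1.17 with metformin (limma, adjusted p = 6.8e-04) and 0.499 with phenformin (adjusted p = 0.11). Both GAB genes reached the limit of 1 RPKM only in treated libraries. SOS1 and SOS2, exchange factors that activate RAS, fell by 0.85 and 0.96 with phenformin (limma, adjusted p = 4.3e-05 and 3.7e-05). With metformin their log2 changes were -0.51 and -0.37 (limma, adjusted p = 5.6e-04 and 0.00379). SOS1 was at -0.02 after quantile normalization, and SOS2 did not pass after median-centring (-0.18), on the TPM scale (-0.11) or after quantile normalization (-0.06). IRS4, a further adaptor of the IRS family, was at 0.238 RPKM or less.

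Among 10 negative regulators at the receptor, 3 were higher and 4 lower with metformin, and 3 and 5 with phenformin. PTPN1 encodes the phosphatase PTP1B, which removes phosphate from the insulin receptor, and fell from 10.3 RPKM to 3.54 with metformin and 3.63 with phenformin (limma, adjusted p = 8.4e-07 and 2.0e-06). Its relative PTPN2 rose by 0.71 and 0.52 (limma, adjusted p = 7.7e-05 and 5.3e-04). SOCS6, of a family that damps cytokine and insulin signaling, rose from 2.33 RPKM to 6.41 and 5.57 (limma, adjusted p = 2.4e-07 and 2.3e-07). SOCS2 fell by 1.23 with metformin (limma, adjusted p = 3.4e-05) and by 0.81 with phenformin (adjusted p = 5.5e-04), while SOCS7 rose by 1.03 and 0.34 (adjusted p = 5.3e-07 and 2.5e-04). ENPP1, which can inhibit the insulin receptor, fell by 0.96 with either drug (limma, adjusted p = 1.8e-05 and 5.0e-05). The list thus held rises and falls of the same kind of gene.

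The catalytic subunits beyond PIK3CA moved in opposite directions with both drugs. PIK3CB, the subunit p110β, averaged 17.8 RPKM with PBS and fell to 6.47 with metformin and 6.71 with phenformin, log2 changes of -1.44 and -1.39 (limma, adjusted p = 2.1e-07 and 1.5e-07). PIK3CD, the subunit p110δ that is best known in white blood cells, rose from 19.7 to 32.3 and 42 RPKM, changes of 0.71 and 1.09 (limma, adjusted p = 1.4e-04 and 1.1e-05). Of the summed RPKM of the 3 catalytic genes, PIK3CB took 43.8% ± 3.49 with PBS, 15.6% ± 1.25 with metformin and 13.2% ± 0.115 with phenformin (SD, n = 3, 3 and 2). PIK3CD took 48.4% ± 3.87, 77.6% ± 1.89 and 82.6% ± 0.0799. PIK3CA was the least abundant of them, at 7.79% ± 0.399 with PBS, 6.83% ± 0.644 with metformin and 4.22% ± 0.0348 with phenformin. The immune markers PTPRC, CD3E and CD14 summed to 0.192 RPKM or less in every library, near 0 beside the level of PIK3CD. PIK3CG was at 0.0238 RPKM or less, and PIK3R2 was not analysed here.

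Of 7 lipid and AKT phosphatases, 4 were higher and 2 lower with metformin, and 4 higher and 1 lower with phenformin. PHLPP1, a phosphatase that acts on AKT, rose from 3.92 RPKM to 13.2 with metformin and 8 with phenformin (limma, adjusted p = 1.5e-07 and 1.5e-06). Its relative PHLPP2 rose from 1.54 to 3.95 and 2.35 RPKM (limma, adjusted p = 1.5e-06 and 4.9e-04). Both PHLPP genes were higher with metformin than with phenformin, the log2 differences being -0.71 and -0.73 (limma, adjusted p = 2.8e-05 and 1.9e-04). INPPL1, which encodes the lipid phosphatase SHIP2, rose only with phenformin, from 30.2 to 56.6 RPKM (limma, adjusted p = 1.4e-05), and was at 30.8 with metformin (adjusted p = 0.719), and the drugs differed (0.88, adjusted p = 3.8e-05). INPP5K and INPP4A were called lower with metformin, at -0.17 and -0.38, but INPP5K was at 0.01 after median-centring and INPP4A was at 0.26 after quantile normalization.

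Of 19 genes of PDK1, AKT and their regulators, 7 were higher and 11 lower with metformin, and 6 and 7 with phenformin. AKT1 averaged 10.3 RPKM with PBS, 7.09 with metformin (log2 change -0.53, limma, adjusted p = 1.6e-04) and 9.83 with phenformin (-0.06, adjusted p = 0.472). AKT2 fell from 15.5 RPKM to 7.97 and 10.6 (limma, adjusted p = 1.3e-06 and 3.3e-05). TRIB3, a pseudokinase that binds AKT, rose from 59.4 RPKM to 279 with metformin and 208 with phenformin (limma, adjusted p = 7.2e-08 and 1.4e-07). TRIB2 of the same family, known to restrain FOXO3, fell by 2.28 with metformin (limma, adjusted p = 4.1e-06) and by 0.93 with phenformin (adjusted p = 0.00104). THEM4, which can bind AKT, fell from 4.82 RPKM to 1.19 and 1.94 (limma, adjusted p = 8.3e-07 and 8.0e-06). The components of mTORC2, the complex that phosphorylates AKT, were split. RICTOR rose from 1.88 RPKM to 5.85 and 4.29 (limma, adjusted p = 8.5e-07 and 3.6e-06), and MAPKAP1 fell from 12.8 to 4.36 and 3.65 (adjusted p = 3.3e-07 and 1.2e-07). DDIT4 encodes REDD1, an inhibitor of mTORC1, and fell from 103 RPKM to 26.9 with metformin (log2 change -1.94, limma, adjusted p = 8.6e-08). The study itself names DDIT4 among the p53 targets that metformin raised in C4-2 cells, the opposite direction. The cause of this difference was not tested. With phenformin DDIT4 was at 117 RPKM, a change of 0.18 (adjusted p = 0.0324) that did not pass after quantile normalization (0.03, adjusted p = 0.514). The drugs differed on DDIT4 by 2.11 (limma, adjusted p = 4.6e-07).

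Among FOXO factors and their partners, 5 of 9 tested genes were higher and 3 lower with metformin, and 4 higher and 5 lower with phenformin. FOXO4 went against FOXO1 and FOXO3, falling from 5.05 RPKM in the PBS group to 2.46 with metformin and 1.61 with phenformin, log2 changes of -1.01 and -1.59 (limma, adjusted p = 1.7e-06 and 1.6e-07). Of the summed RPKM of FOXO1, FOXO3 and FOXO4, FOXO4 took 26.1% ± 0.229 with PBS, 7.63% ± 0.272 with metformin and 6.06% ± 0.0185 with phenformin (SD, n = 3, 3 and 2). FOXO3 took 67.6% ± 1.45, 81.4% ± 1.03 and 86.2% ± 0.363. FOXO6 was at 0.693 RPKM or less. SIRT1, a deacetylase that acts on FOXO factors, rose 6.67-fold with metformin, from 7.88 to 52.6 RPKM (limma, adjusted p = 1.1e-08), and 2.28-fold with phenformin, to 17.9 RPKM (adjusted p = 1.2e-07). XPO1, the exportin that carries FOXO proteins out of the nucleus, rose from 15.1 RPKM to 29.9 and 36.5 (limma, adjusted p = 3.6e-07 and 5.8e-08). The kinases SGK1 and SGK3, which like AKT phosphorylate FOXO3, moved in opposite directions. SGK1 rose by 1.60 and 1.46 (limma, adjusted p = 1.1e-05 and 1.7e-05), and SGK3 fell by 1.53 and 1.19 (adjusted p = 9.4e-06 and 4.4e-05). SGK1 reached the limit of 1 RPKM only in treated libraries.

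Of 13 tested genes known from other cells as FOXO targets, with RICTOR counted again and the members aside, 7 were higher and 4 lower with metformin, and 6 higher and 4 lower with phenformin. Their median log2 change was 0.27 with metformin and 0.14 with phenformin, against -0.30 and -0.15 for all genes. CCNG2, a cyclin linked to cell cycle exit, rose from 21.6 RPKM to 67.6 with metformin and 78.8 with phenformin (limma, adjusted p = 8.1e-08 and 2.0e-08). GADD45A, a growth arrest gene that is also a p53 target and that the study itself picked out in these libraries, rose from 10.5 to 45.1 and 70.4 RPKM (limma, adjusted p = 1.0e-07 and 2.3e-08). ERBB3, a receptor that FOXO factors raise in other cancer lines, went the other way, from 23.2 RPKM to 10.5 and 9.07 (limma, adjusted p = 2.0e-06 and 1.1e-06). SESN1, a stress-induced inhibitor of mTORC1, was called lower with metformin at -0.36 (limma, adjusted p = 0.00496) but was at -0.17 after median-centring (adjusted p = 0.122). SOD2, a mitochondrial antioxidant enzyme, was called lower with phenformin at -0.32 (limma, adjusted p = 0.00928) and was at 0.09 after quantile normalization (adjusted p = 0.367). The list also holds the members IRS2, INSR and PIK3CA. IRS2 rose with both drugs. INSR fell with both, but with metformin it was not called on the TPM scale and did not fall after quantile normalization. PIK3CA fell with phenformin and had no stable direction with metformin.

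**Figure D4:**
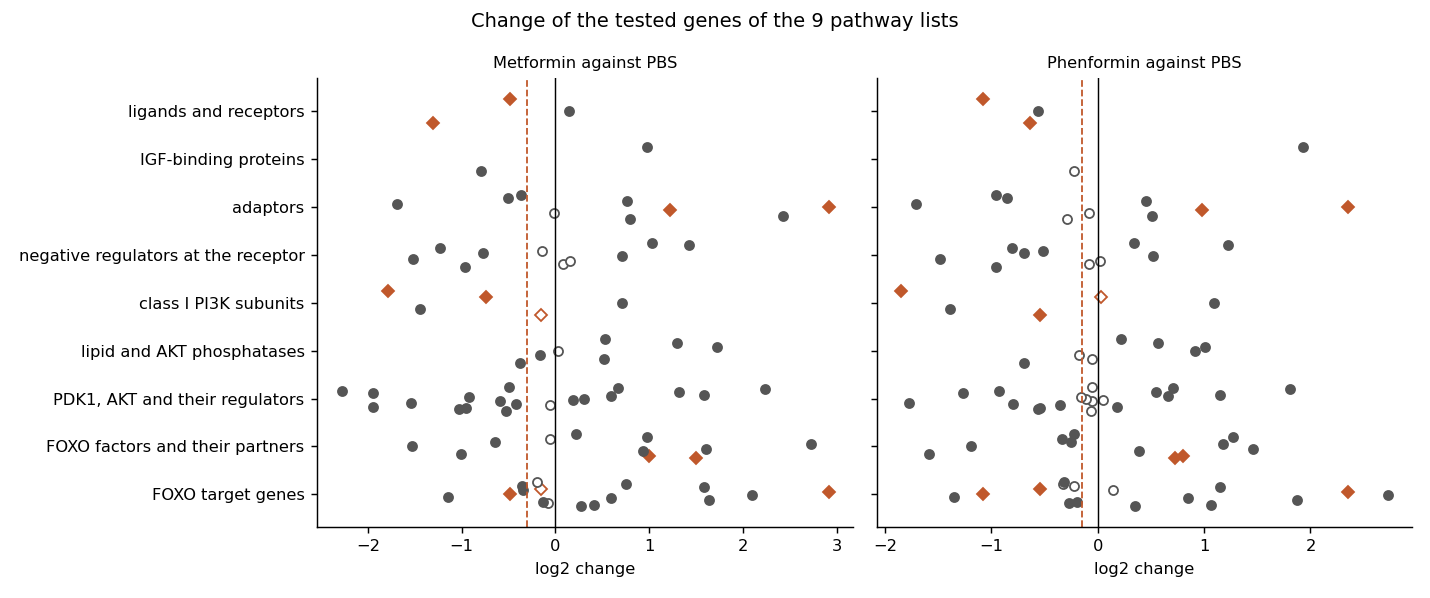
Log2 change with metformin and with phenformin (x axis) of every tested gene in the 9 pathway lists (y axis). Filled marks passed limma and open marks did not, diamonds are the 9 members, circles are other genes and the dashed line is the median of all genes tested. Every list with more than 2 genes besides the members spans both sides of 0, and IRS2 is the member furthest to the right in both panels.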

How the data were processed

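TruSeq mRNA libraries had been sequenced on an Illumina HiSeq instrument. The authors mapped the reads with CLC Genomics Workbench 7.0, and the deposited values are RPKM per gene. The submitters' notes name GRCh37.p13, and the sources used here give neither the annotation release nor the use of strand nor any scaling between libraries. Groups followed the sample labels. The 9 members and the pathway lists were chosen with earlier results of these data known. Read totals were recovered from the RPKM steps, and 100% of the 25529 features above 0 then had whole read numbers (tolerance 0.01 read). Python 3.11.15 with numpy 2.4.6, pandas 2.3.3 and matplotlib 3.10.9 read and drew the values. Comparisons used limma 3.58.1 in R 4.3.3 (lmFit, eBayes with trend, two-sided, Benjamini-Hochberg over all genes tested). Changes are on the log2(RPKM + 0.1) scale, which understates those of low genes, and folds are ratios of mean RPKM. The metformin fit took 6 libraries and genes that reached 1 RPKM in 3 or more of them. The phenformin fit took 8 libraries and genes that reached 1 RPKM in 2 or more. Named pathway genes were paralogs of members, AKT genes or, per list, up to 2 with the largest rise and up to 2 with the largest fall with either drug, among calls whose groups did not overlap (38 genes by size of change). The procedure was tested on simulated data in which few genes changed, equally in both directions. That setting is unlike these data, where most genes were called.

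Other settings tried were a pseudocount of 0.01 or 1, a filter on a mean RPKM of 5 or none at all, 3 scalings (median-centring, the TPM scale and quantile normalization), the variance trend removed or fitted robustly, treat against 1.5-fold, a replicate block, fits on other groups of libraries, and the removal of each library in turn. Limma-voom on the recovered reads and a reduced PBS replicate 1 were added after the data were seen. The reduction took away the reads of replicates 2 and 3 gene by gene, with negative values set to 0. Overlapping genes were looked up in an annotation of another build, used for names only. A planned description of protein motifs was not run, and some genes that the rule takes as paralogs or by name are not reported here.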

Additional observations from a re-analysis of the deposited data

How the results depend on the processing

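Over the 9 members and 3 comparisons, 555 recomputed values were compared with those given above, and 530 kept their direction and their side of the limit. A mean RPKM of at least 5, under which fewer members were tested, left 2 members lower with metformin, 1 lower with phenformin, and 1 higher and 3 lower between the drugs. Tested against a 1.5-fold change, 2 members were lower with phenformin, and 0 were higher and 0 lower between the drugs. Direction changed for PIK3CA with metformin (0.03 median-centred, 0.11 on the TPM scale, 0.25 after quantile normalization), INSR with metformin (0.01, quantile), PIK3R1 with phenformin (-0.03, quantile) and PIK3R3 between the drugs (0.03 without metformin replicate 1, 0.04 without phenformin replicate 1, -0.17 to 0.04 over all libraries left out). The cause was not tested. PIK3CA passed with metformin without trend (limma, adjusted p = 0.0375) and with limma-voom (adjusted p = 0.0439), which was chosen after seeing the data. With each library left out in turn, 4 members were higher and 4 to 5 lower with metformin, 4 and 4 with phenformin, and 2 higher and 5 to 6 lower between the drugs. The replicate block gave 4 higher and 4 lower members with each drug and 2 and 6 between them, and changed no member's call. The deviations from group means of the 7 same-numbered pairs had correlations of -0.08 to 0.01 (other pairs -0.07 to 0.08). With so few libraries per group, these values cannot show whether same-numbered samples shared a culture or preparation. The 2 phenformin libraries limit every value with that drug.

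Counts over all genes moved by over 1.5 times in the same 2 settings. Against 1.5-fold, 1367 were higher and 3284 lower with metformin, 1311 and 2397 with phenformin, and 818 and 426 between the drugs, and of the other pathway genes 15 and 16, 14 and 12, and 3 and 3. At a mean RPKM of at least 5, 3300 genes were lower with metformin, 2638 with phenformin and 2876 higher between the drugs, and 17 other pathway genes were lower with each drug.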
